A study of Homo sapiens with 12 samples.

Results

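The alpha-globin genes HBA1 and HBA2 were followed across 12 RNA-seq libraries of CWR22Rv1, an established human prostate carcinoma cell line, beside NPRL3 and LUC7L, the genes that flank the alpha-globin cluster. The members were named by gene symbol, and HBA2 was singled out because its level differed between groups in these same libraries, so its levels are given as a description with no test. Of the 4 genes, 3 had values among the 13951 genes analysed. HBA1 was not analysed here, so the sum of both alpha-globin copies cannot be given, and every alpha-globin value below is that of HBA2. NPRL3 and LUC7L were chosen by position and served as references.

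The study asked how exogenous MEIS1, a homeodomain transcription factor, acts in cells with and without HOXB13, another homeodomain factor of the prostate lineage. There were 4 groups of 3 libraries. Control cells carried Cas9 without a guide RNA. LV-MEIS1 cells carried a lentivirus that expresses MEIS1. HOXB13ko cells had HOXB13 targeted with CRISPR/Cas9, and were made by recombining 6 clonal lines. HOXB13ko-LV-MEIS1 cells were that pool infected with the MEIS1 lentivirus. All lines were selected with puromycin and cultured for 48 h before RNA extraction, and whether the LV-MEIS1 cells also carried Cas9 is not given in the sources used here. Because each group is 1 derived line or pool, the spread between replicate libraries says nothing of how independently derived lines would differ.

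Hemoglobin is a tetramer of alpha-type and beta-type globin chains that bind oxygen through haem, and its alpha chains are made in red cell precursors at very high levels. The human alpha-globin cluster on 16p13.3 holds an embryonic gene, HBZ, the adult pair HBA2 and HBA1, which encode the same protein, and the minor genes HBM and HBQ1. Its main enhancers lie within introns of NPRL3, a component of the GATOR1 complex that restrains mTORC1. LUC7L, on the other side, encodes a protein related to a U1 snRNP component of yeast. Low alpha-globin expression has been described in cell types outside the erythroid lineage.

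In the GENCODE annotation of GRCh38, HBA2 (ENSG00000188536) lies on the plus strand of chromosome 16 at chr16:172876-173710, HBA1 (ENSG00000206172) at chr16:176680-177522 and HBQ1 (ENSG00000086506), which encodes theta-globin, at chr16:180459-181179. NPRL3 (ENSG00000103148) lies on the minus strand at chr16:84271-138677 and LUC7L (ENSG00000007392), also on the minus strand, at chr16:188969-229463. HBA2, HBA1 and HBQ1 each have 3 exons and a coding sequence of 429 bases. The first 90 coding bases, printed 5′ to 3′ from the annotated transcripts, show why reads of HBA2 and HBA1 are hard to separate and those of HBQ1 are not. Capitals mark bases that differ from HBA2 at the same position.
HBA2: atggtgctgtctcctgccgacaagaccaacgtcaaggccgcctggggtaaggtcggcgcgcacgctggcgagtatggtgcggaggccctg
HBA1: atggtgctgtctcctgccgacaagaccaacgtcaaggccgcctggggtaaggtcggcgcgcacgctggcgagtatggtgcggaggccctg
HBQ1: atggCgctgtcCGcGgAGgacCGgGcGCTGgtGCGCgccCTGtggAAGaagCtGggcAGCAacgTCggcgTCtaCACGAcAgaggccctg

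Over the whole coding sequence HBA2 and HBA1 differed at 0 of 429 bases, while HBA2 and HBQ1 differed at 116, an identity of 73.0%. All 380 possible reads of 50 bases within the HBA2 coding sequence occurred in the HBA1 transcript. Over the full HBA2 transcript of 576 bases, 96 of 527 such reads (18.2%) did not occur in HBA1. Words of 31 bases gave the same picture, since all 399 words inside the coding sequence were shared and 0 of the 80 inside the 3′ UTR were. Over all HBA2 transcripts annotated in GENCODE, 755 of 852 words (88.6%) occurred in HBA1 or in the genes ENSG00000290038 and ENSG00000290010. Whether the transcript set used by the authors held ENSG00000290038 and ENSG00000290010 was not checked. The HBA2 value therefore depends on how the authors' software divided the reads that HBA2 shares with HBA1. Reads of these copies cannot be told apart in the coding part. None of the 498 words of HBQ1 occurred in another gene.

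The 12 libraries had estimated depths of 17200000 to 28700000 reads, at which 3 reads are worth 0.105 to 0.174 CPM (read counts scaled to library size). Correlations of log2 values between replicates ranged from 0.99 to 0.995. MEIS1 was at 4.05 to 4.45 CPM in Control and 45.8 to 49.6 CPM in LV-MEIS1, and at 3.42 to 3.65 CPM in HOXB13ko and 29.3 to 30.1 CPM in HOXB13ko-LV-MEIS1. HOXB13 mRNA was at 185 to 215 CPM in Control and 150 to 152 CPM in LV-MEIS1, against 307 to 347 CPM in HOXB13ko and 326 to 375 CPM in HOXB13ko-LV-MEIS1. The mRNA level thus gives no check of the knockout, which the study verified at the protein level by western blot. Directions below refer to the libraries labelled HOXB13ko. All 10 markers of prostate luminal epithelium had values, and their sum was 3240 to 3370 CPM in the Control libraries, 2510 to 2550 CPM in LV-MEIS1, 3410 to 3460 CPM in the libraries labelled HOXB13ko and 3410 to 3570 CPM in the HOXB13ko-LV-MEIS1-labelled set. None of the 15 erythroid markers on the list, HBB and GATA1 among them, had values, so the list gave no measure of erythroid cells.

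HBA2 was a low but clearly detected transcript in Control cells and was at or below the limit of detection in the LV-MEIS1 libraries. It was at 13.27, 14.01 and 17.49 CPM in Control, and at 0, 0.0469 and 0 CPM in LV-MEIS1. Values of 1.46, 1.95 and 0.979 CPM were found in the libraries labelled HOXB13ko, and of 1.06, 2.17 and 2.11 CPM in the HOXB13ko-LV-MEIS1-labelled set. All Control libraries were above all others, all LV-MEIS1 libraries were below all others, and the remaining groups overlapped. In order, the group means were 14.9 ± 2.26 CPM in Control (SD, n = 3), 1.78 ± 0.622 CPM in HOXB13ko-LV-MEIS1, 1.46 ± 0.486 CPM in HOXB13ko and 0.0156 CPM in LV-MEIS1. The middle pair of this order did not differ beyond its spread. In bulk RNA, fewer cells that express a gene and less RNA per cell cannot be told apart.

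**Figure D1:**
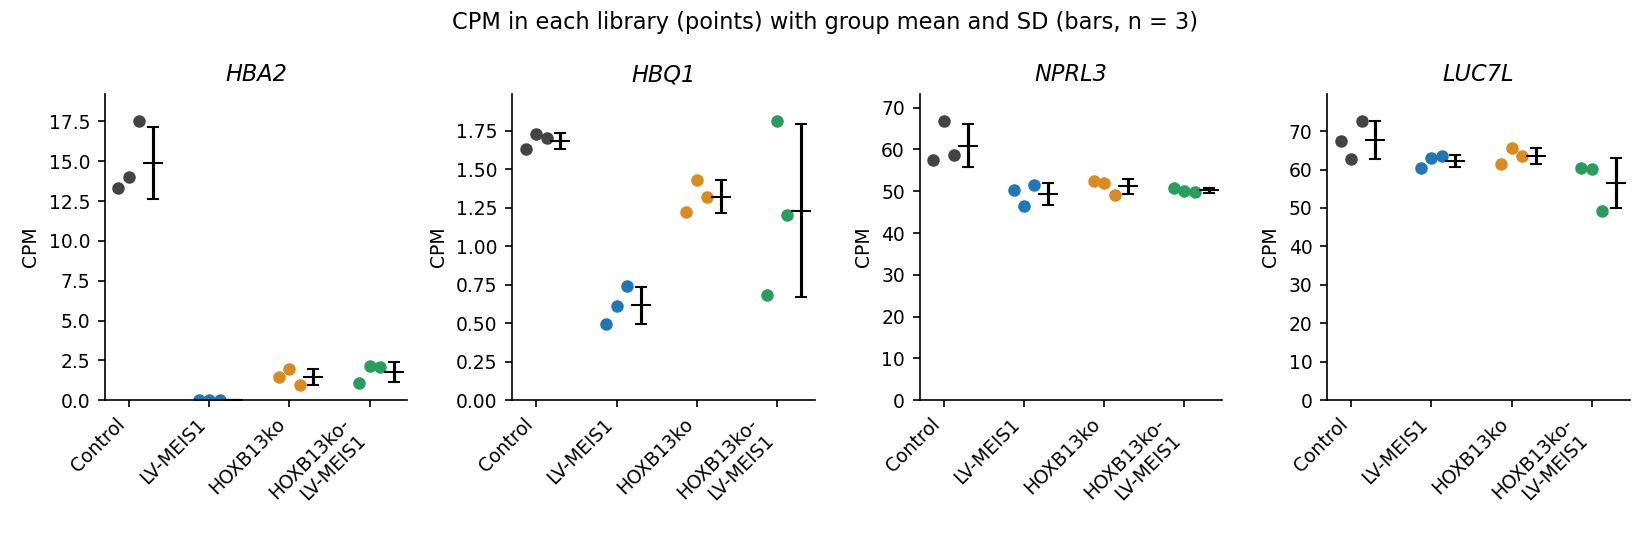
Values of HBA2, HBQ1, NPRL3 and LUC7L in CPM (vertical axis, starting at 0) in the 4 groups. Each point is 1 library, and the bars give the group mean and SD (n = 3). HBA2 spans 0 to 17.5 CPM over the groups, whereas NPRL3 stays between 46.4 and 66.7 CPM and LUC7L between 49.1 and 72.5 CPM.

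In reads, as estimated from the CPM step of 1 read, HBA2 had 228 to 454 per Control library, 26 to 56 in the libraries labelled HOXB13ko and 28 to 54 in the HOXB13ko-LV-MEIS1-labelled set. The LV-MEIS1 libraries held 1 HBA2 read in all, at a summed depth of 66400000 reads, which is under the value of 3 reads. The summed Control libraries held 1006 HBA2 reads at 66300000 reads, a ratio of 1010 with a binomial 95% interval of 181 to 39900. The same ratio was 97.7 (17.2 to 3890) for the libraries labelled HOXB13ko and 117 (20.7 to 4670) for the HOXB13ko-LV-MEIS1-labelled set. The reads are estimates rounded to whole numbers, and HBA2 was picked for its difference, so these intervals are approximate and are no test. The intervals cover counting error only and treat the summed reads of each group as 1 library. They span more than 2 orders of magnitude because 1 read stands in the denominator, so the size of the difference from LV-MEIS1 is poorly fixed.

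On the log2(CPM + 0.5) scale, HBA2 differed by -4.89 ± 0.22 (SE) between LV-MEIS1 and Control and by -2.99 ± 0.22 between HOXB13ko and Control, in both cases lower than Control in 3 of 3 libraries. By group means, Control was 10.2-fold above the libraries labelled HOXB13ko. Both differences use the same Control libraries. HOXB13ko-LV-MEIS1 differed from HOXB13ko by 0.20 ± 0.22 and from LV-MEIS1 by 2.10 ± 0.22. The MEIS1 effect in Control cells minus that in the libraries labelled HOXB13ko, called here the difference of the MEIS1 effects, was -5.10 ± 0.32. Each value that involves LV-MEIS1 depends on the pseudocount, because that group is at the floor, and is no bound. With a pseudocount of 0.1 the LV-MEIS1 difference was -7.04, and with 1 it was -3.96.

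Relative to its neighbour NPRL3 in the same library, HBA2 was at 23.1%, 21.0% and 29.8% of the NPRL3 CPM in Control and at 0%, 0.101% and 0% in LV-MEIS1. It was at 2.77%, 3.76% and 1.99% in the libraries labelled HOXB13ko, and at 2.09%, 4.33% and 4.24% in the HOXB13ko-LV-MEIS1-labelled set. The order of the groups was thus the same as without the reference. Per kilobase of annotated transcript, HBA2 in Control was at 25.9 ± 3.92 CPM per kb, between NPRL3 at 19.5 ± 1.63 and LUC7L at 47.1 ± 3.42. Per kilobase, it was at 2.54 ± 0.844 in HOXB13ko and 3.09 ± 1.08 in HOXB13ko-LV-MEIS1, below both neighbours.

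HBQ1, the theta-globin gene just downstream of the alpha pair, was much lower than HBA2 in Control, at 3.19 ± 0.0979 CPM per kb. It was at 1.63, 1.73 and 1.70 CPM in Control and at 0.498, 0.609 and 0.740 CPM in LV-MEIS1, with no overlap. HBQ1 levels in the libraries labelled HOXB13ko were 1.22, 1.43 and 1.32 CPM, all below Control, and the HOXB13ko-LV-MEIS1-labelled set spread from 0.683 to 1.81 CPM and overlapped every other group. These values rest on 9 to 45 reads per library. HBQ1 differed by -0.97 ± 0.21 (log2) between LV-MEIS1 and Control, with an adjusted p of 0.685 in limma's treat test against a fold change of 1.5 and of 0.00193 in limma's eBayes test against no change. Between HOXB13ko and Control the difference was -0.26 ± 0.21, with an eBayes adjusted p of 0.358 in limma.

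For HBQ1 the difference of the MEIS1 effects was -0.85 ± 0.30, with an adjusted p of 1.0 by limma's treat and 0.0413 by eBayes. HBQ1 therefore passed the test against no change and missed the one against a fold change of 1.5 in both contrasts that hold LV-MEIS1 against Control. The background is high for the first of these tests, which called 44.5% of all 13951 genes in LV-MEIS1 against Control and 34.2% for the difference of the MEIS1 effects. The treat test called 3.99% and 2.93% of all genes, respectively.

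MB, which encodes myoglobin, the oxygen-binding globin of muscle, was the third globin with values and lies on chromosome 22. Its level ranged from 29.1 to 34.5 CPM in Control and from 34.5 to 40.3 CPM in LV-MEIS1. It ranged from 25.8 to 27.1 CPM in the libraries labelled HOXB13ko and from 27.7 to 32.3 CPM in the HOXB13ko-LV-MEIS1-labelled set. Between LV-MEIS1 and Control MB differed by 0.21 ± 0.08 (log2), and by -0.25 ± 0.08 between HOXB13ko and Control, with eBayes adjusted p-values of 0.0487 and 0.0275 in limma and treat adjusted p-values of 1.0. Of the 13 globin genes on the list, the other 10 were not analysed here.

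The flanking reference genes varied far less than HBA2. NPRL3 was at 57.4, 66.7 and 58.6 CPM in Control and at 50.2, 46.4 and 51.5 CPM in LV-MEIS1. It was at 52.5, 52.0 and 49.1 CPM in the libraries labelled HOXB13ko and at 50.8, 50.0 and 49.7 CPM in the HOXB13ko-LV-MEIS1-labelled set. All 3 Control libraries lay above the 9 others. NPRL3 differed from Control by -0.30 ± 0.06 (log2) in LV-MEIS1 and by -0.25 ± 0.06 in HOXB13ko. Both differences had a treat adjusted p of 1.0 in limma, and eBayes adjusted p-values of 0.00174 and 0.0101. HOXB13ko-LV-MEIS1 differed from HOXB13ko by -0.03 ± 0.06, with an eBayes adjusted p of 0.866 in limma, and the difference of the MEIS1 effects was -0.27 ± 0.09 (0.0335). The NPRL3 and MPG genes overlap on opposite strands, and strand was not used in counting. Reads from transcript sequence that both genes share thus cannot be told apart. Of 6621 words of 31 bases in NPRL3 transcripts, 900 (13.6%) occurred in other genes on either strand, and MPG was not the only one. For LUC7L it was 226 of 6557 words (3.45%).

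LUC7L was at 67.5, 62.7 and 72.5 CPM in Control, 60.5, 63.0 and 63.4 CPM in LV-MEIS1, 61.5, 65.7 and 63.6 CPM in HOXB13ko and 60.4, 60.1 and 49.1 CPM in HOXB13ko-LV-MEIS1. The last library was the lowest of all 12, and Control overlapped LV-MEIS1 and HOXB13ko. Relative to Control, LUC7L differed by -0.11 ± 0.08 (log2) in LV-MEIS1 and by -0.08 ± 0.08 in HOXB13ko, and HOXB13ko-LV-MEIS1 differed from HOXB13ko by -0.17 ± 0.08. The eBayes adjusted p-values in limma were 0.24, 0.412 and 0.311, and the difference of the MEIS1 effects, at 0.06 ± 0.11, had 0.699. No change was detected in LUC7L by either test in these 4 comparisons.

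To see whether the surrounding region moved with HBA2, the genes annotated in the first 1000 kb of chromosome 16 were taken as a list. Of 91 such genes, 41 had values, which leaves 40 without HBA2. In LV-MEIS1 against Control, 0 of 40 were called by limma's treat test, against 3.99% of all genes. An unadjusted treat p under 0.05 was found for 1 of the 40 and for 906 of all 13951 genes. In the eBayes test 17 were lower and 2 higher, where 21.3% of all genes were called lower. Every LV-MEIS1 library was below every Control library in 19 of the 40, compared with 25.1% of all genes. The median log2 difference of the 40 genes was -0.148, against 0.007 for all genes, and 30 lay below 0, where 49.0% of all genes did. This small shift also ran beyond the window, with 19 of 29 genes lower and a median of -0.15 between 1000 and 2000 kb, and 62.0% lower with a median of -0.075 over the 566 genes matched by symbol past the first 1000 kb. RPUSD1, a predicted pseudouridine synthase gene, was the lowest of those that passed the eBayes test apart from HBQ1, at -0.66 ± 0.09 (adjusted p 5.03e-05 in limma), with 40.4, 33.1 and 39.9 CPM in LV-MEIS1 where Control had 55.1, 68.4 and 57.2.

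In HOXB13ko against Control, 0 of the 40 neighbours were called by treat, against 1.41% of all genes. An unadjusted treat p under 0.05 was found for 2 of the 40 and for 378 of all 13951 genes. By limma's eBayes test 23 were lower and 0 higher, where 32.9% of all genes were called and 16.4% were called lower. As many as 39 of the 40 lay below 0, with RHBDL1 at 0.01 the exception, while 50.2% of all genes did, and the median was -0.252 against -0.002 for all genes. In 30 of 40 genes every library labelled HOXB13ko was below every Control library, compared with 23.1% of all genes. Under the other scalings and pseudocounts and without each library in turn, 37 to 39 of the 40 were lower, with medians of -0.306 to -0.213. Both comparisons with Control use the same Control libraries. The next stretch of the chromosome, between 1000 and 2000 kb, had 27 of 29 genes lower and a median of -0.221, and the 566 genes matched by symbol beyond the first 1000 kb had 68.6% lower and a median of -0.096. The small downward difference near HBA2 thus ran on beyond the first 1000 kb, and the HBA2 difference of -2.99 lay far outside the range of its neighbours, the lowest of which was GNG13 at -1.22.

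**Figure D2:**
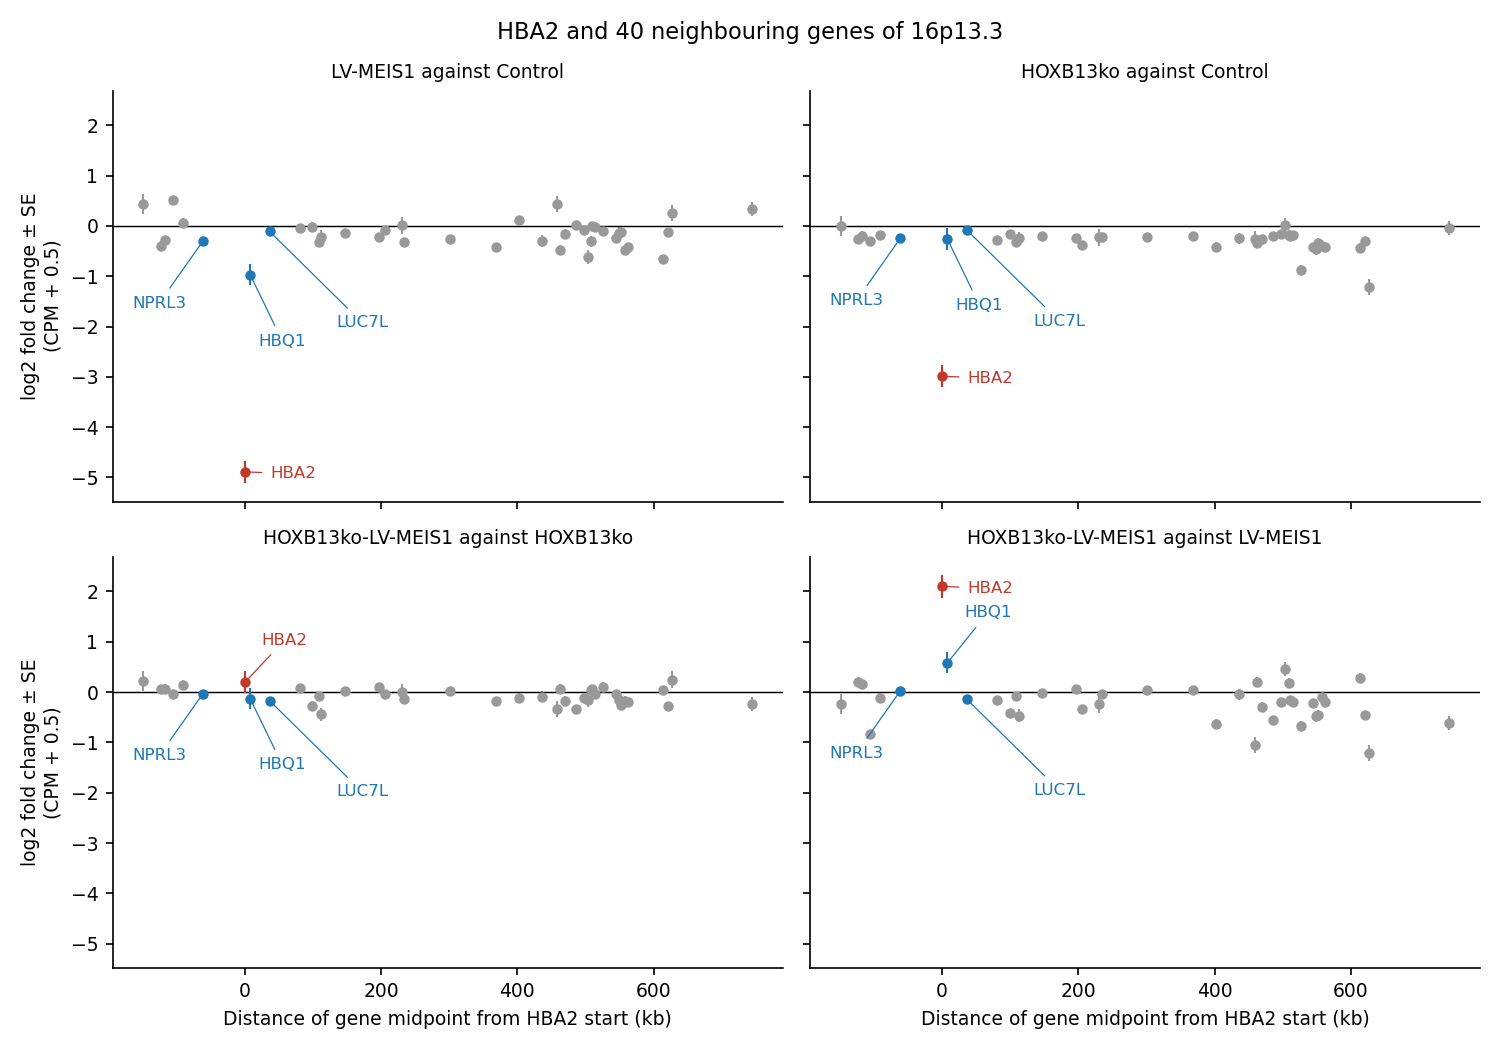
Log2 fold change with SE (vertical axis) of HBA2 and 40 neighbouring genes in 4 comparisons against the distance of each gene's midpoint from the HBA2 start in kb (horizontal axis). HBA2 is red and HBQ1, NPRL3 and LUC7L are blue. HBA2 lies at -4.89, -2.99, 0.20 and 2.10 in the 4 panels, while the other genes lie between -1.22 and 0.58.

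GNG13 and FBXL16 stood lowest among the neighbours in HOXB13ko against Control. GNG13, which encodes a G protein gamma subunit, was at 4.54, 3.50 and 4.57 CPM in Control and 1.71, 1.08 and 1.82 CPM in the libraries labelled HOXB13ko, with no overlap, a difference of -1.22 ± 0.16 and a treat adjusted p of 0.0571 in limma. It fell in HOXB13ko-LV-MEIS1 against LV-MEIS1, by 1.21 on the log2 scale (SE 0.16, treat adjusted p 0.015 in limma), from 4.92, 4.78 and 5.48 CPM to 1.94, 1.65 and 2.11 CPM. That call was lost without LV-MEIS1 replicate 3 and without HOXB13ko-LV-MEIS1 replicate 2, each with an adjusted p of 0.0737, and with quantile normalisation (0.117). GNG13 lies within the span of CHTF18 on the opposite strand, so reads from any transcript sequence they share cannot be told apart. How much sequence the pair shares was not computed. FBXL16, an F-box protein gene, was at 45.9, 57.7 and 49.1 CPM in the Control libraries and 30.0, 27.8 and 24.6 CPM in the libraries labelled HOXB13ko, a difference of -0.88 ± 0.10 with a limma treat adjusted p of 0.282 and an eBayes adjusted p of 1.77e-05.

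Closer to HBA2, between RHBDF1 and AXIN1, the genes other than HBQ1, NPRL3 and LUC7L kept to small differences. RHBDF1, which encodes the inactive rhomboid protein iRhom1, was at 25.7, 27.8 and 24.6 CPM in Control, 36.4, 35.3 and 39.9 CPM in LV-MEIS1, and 22.2, 22.3 and 18.9 CPM in HOXB13ko. It was thus higher than Control in all LV-MEIS1 libraries, where HBA2 was lower, with a difference of 0.51 ± 0.08 and an eBayes adjusted p of 0.000235 in limma (treat 1.0). MPG, a DNA glycosylase gene, differed by 0.06 in LV-MEIS1 and -0.19 in HOXB13ko, each against Control. FAM234A differed by -0.05 and -0.28 in the same comparisons, RGS11, a regulator of G protein signalling, by -0.02 and -0.17, and ARHGDIG by -0.32 and -0.32. PDIA2, a protein disulfide isomerase, differed by -0.22 and -0.25, and AXIN1, a scaffold of the beta-catenin destruction complex, by -0.15 and -0.20. None of these 7 genes was called by treat in either comparison.

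In HOXB13ko-LV-MEIS1 against HOXB13ko, the comparison in which HBA2 overlapped, 0 of 40 neighbours were called by treat, where 0.00717% of all genes were. An unadjusted treat p under 0.05 was found for 0 of the 40 and for 9 of all 13951 genes. The eBayes test also called 0 of 40, against 0.0502% of all genes in either direction and 0.0287% lower. In 9 of 40 every HOXB13ko-LV-MEIS1 library was below every HOXB13ko library, compared with only 10.6% of all genes. Their median was -0.056 with 25 of 40 lower, where 48.1% of all genes were lower. Without HOXB13ko replicate 1, however, the median was 0.004 with 19 lower. PDIA2 and WFIKKN1, a protease inhibitor gene, had the largest differences, at -0.44 ± 0.13 (eBayes adjusted p 0.171 in limma) and -0.34 ± 0.16 (0.334). In HOXB13ko-LV-MEIS1 against LV-MEIS1, where HBA2 was higher, treat called 1 of 40 neighbours, GNG13 above, against 6.71% of all genes, and eBayes called 16 lower and 3 higher, where 50.1% of all genes were called and 26.1% were called lower. No overlap, with HOXB13ko-LV-MEIS1 lower, was seen in 18 of 40 and in 30.1% of all genes. The median there was -0.172 against -0.020 for all genes, with 29 of 40 lower, where 52.4% of all genes were lower. For the difference of the MEIS1 effects, treat called 0 of 40, where it called 2.93% of all genes. An unadjusted treat p under 0.05 was found for 0 of the 40 and for 860 of all 13951 genes. The eBayes test called 14, of which 10 were lower, where it called 34.2% of all genes, or 16.2% lower.

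Globin chains need haem and iron, and a list of 19 haem synthesis, iron transport and haem breakdown genes, of which 18 had values, was examined next. In LV-MEIS1 against Control, 1 of 18 was called by treat, against 3.99% of all genes, and the eBayes test called 2 higher and 4 lower, where it called 44.5% of all genes. SLC40A1, which encodes the iron exporter ferroportin, rose to 23.3, 25.6 and 22.6 CPM in LV-MEIS1 from 11.3, 10.3 and 11.3 CPM, a log2 difference of 1.09 ± 0.09 with a treat adjusted p of 0.00136 in limma. In the groups labelled HOXB13ko and HOXB13ko-LV-MEIS1 it stayed between 9.22 and 11.4 CPM, and it fell by 1.15 (SE 0.09, treat adjusted p 0.000286) in HOXB13ko-LV-MEIS1 against LV-MEIS1. The difference of the MEIS1 effects on SLC40A1 was 0.97 ± 0.13 with a treat adjusted p of 0.127 and an eBayes adjusted p of 6.14e-05 in limma. SLC40A1 was thus highest in the group where HBA2 was lowest. Over the list, treat called 0 of 18 for the difference of the MEIS1 effects and eBayes 6, where 2.93% and 34.2% of all genes were called. An unadjusted treat p under 0.05 was found for 1 of the 18 and for 860 of all 13951 genes. In HOXB13ko-LV-MEIS1 against LV-MEIS1 treat called SLC40A1 alone and eBayes called 10, where 6.71% and 50.1% of all genes were called.

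SLC25A37, the mitochondrial iron importer mitoferrin-1, was at 164, 143 and 154 CPM in Control and 88.8, 92.6 and 90.2 CPM in LV-MEIS1, a difference of -0.76 ± 0.07 with a limma treat adjusted p of 0.305 and an eBayes adjusted p of 1.4e-06. In HOXB13ko against Control, treat called 0 of 18 genes, against 1.41% of all genes. An unadjusted treat p under 0.05 was found for 0 of the 18 and for 378 of all 13951 genes. The eBayes test called 2 higher and 4 lower, where it called 32.9% of all genes. FTL, the ferritin light chain, was at 176, 203 and 196 CPM in Control and 124, 124 and 115 CPM in HOXB13ko, a difference of -0.66 ± 0.07 (eBayes adjusted p 1.82e-05 in limma). TFRC, the transferrin receptor, was at 427, 365 and 329 CPM in Control and 489, 577 and 575 CPM in HOXB13ko, a difference of 0.55 ± 0.08 (0.000244). In HOXB13ko-LV-MEIS1 against HOXB13ko, treat and eBayes called 0 of 18. An unadjusted treat p under 0.05 was found for 0 of the 18 and for 9 of all 13951 genes. Of all genes, treat called only 0.00717% there and eBayes 0.0502%, so these counts do not set the list apart. By sign, however, 15 of the 18 lay above 0 in this comparison, so 16.7% were lower, against 48.1% of all genes. Their median was 0.084, against 0.006 for all genes. The largest differences were those of SLC25A37 at -0.17 and of FTH1, the ferritin heavy chain, at 0.15. Set against Control, the list had a median of -0.077 in LV-MEIS1 and of -0.126 in HOXB13ko, where all genes had 0.007 and -0.002.

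**Figure D3:**
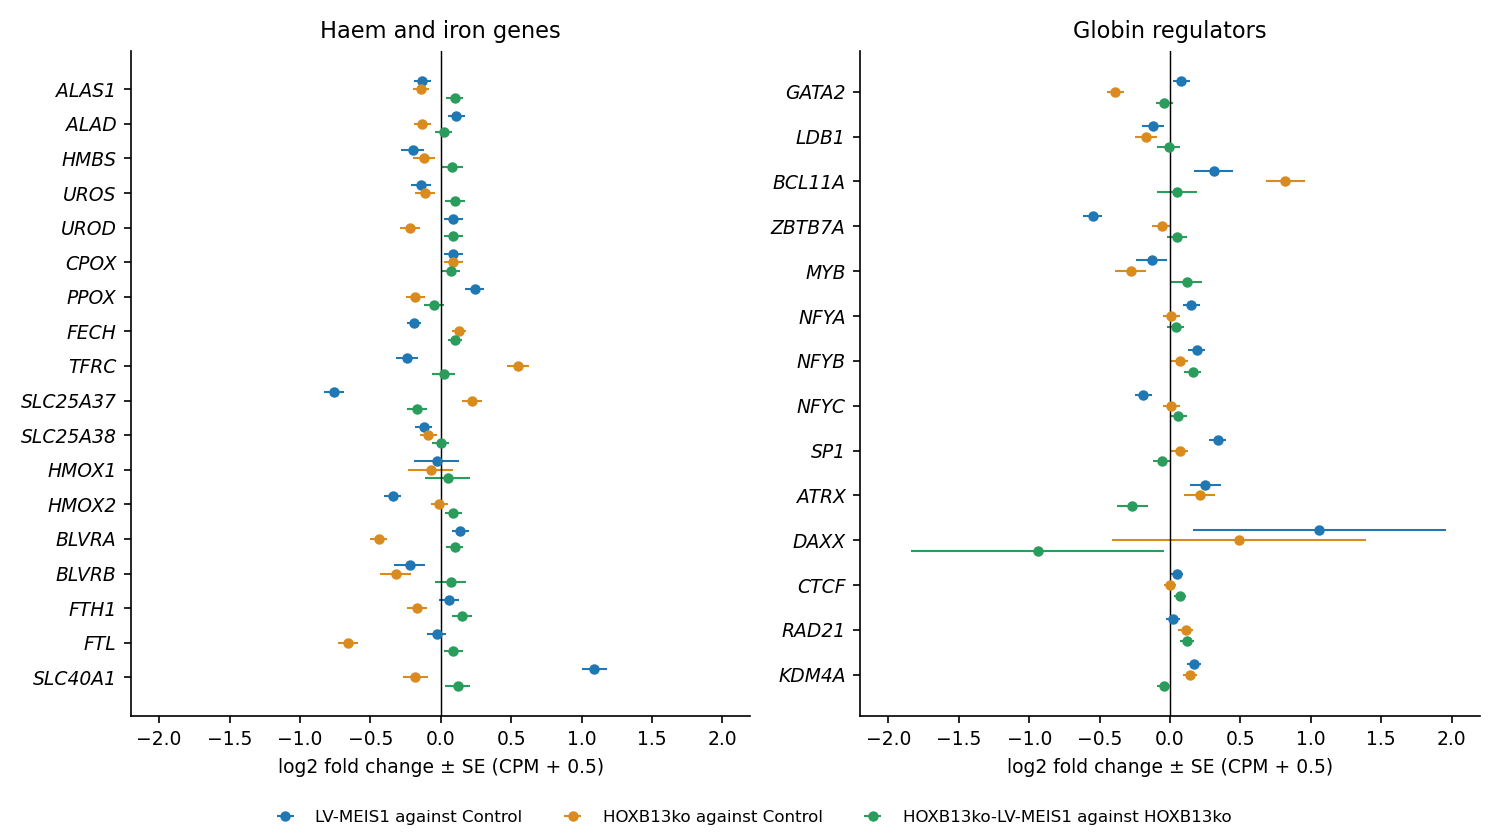
Log2 fold change with SE (horizontal axis) of 18 haem and iron genes (left) and 14 globin regulators (right) in 3 comparisons, marked by colour. SLC40A1 at 1.09 in LV-MEIS1 against Control is the value that passed the treat test, and DAXX has the widest error (0.90).

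Of 20 regulators of globin transcription on a further list, 14 had values, and GATA1, TAL1, LMO2, KLF1, NFE2 and AHSP were not analysed here. Treat called 0 of 14 in each of the 5 comparisons, with 0 at an unadjusted p under 0.05 in each, and eBayes called 5 for LV-MEIS1 and 2 for HOXB13ko, each against Control, 0 for HOXB13ko-LV-MEIS1 against HOXB13ko, 7 for HOXB13ko-LV-MEIS1 against LV-MEIS1 and 5 for the difference of the MEIS1 effects. The shares of all genes called by eBayes in these comparisons were 44.5%, 32.9%, 0.0502%, 50.1% and 34.2%, so the shares of regulators were near or below the background. In the same order, an unadjusted treat p under 0.05 was found for 906, 378, 9, 1348 and 860 of all 13951 genes. ZBTB7A, which encodes the repressor LRF of fetal globin genes, was at 92.1, 104 and 102 CPM in Control and 71.7, 61.7 and 69.2 CPM in LV-MEIS1, a difference of -0.55 ± 0.07 (eBayes adjusted p 2.44e-05 in limma). BCL11A, another repressor of fetal globin genes, was at 4.31, 3.59 and 4.84 CPM in Control and 8.98, 6.95 and 7.74 CPM in HOXB13ko, a difference of 0.82 ± 0.14 (0.000472). Neither pair of groups overlapped.

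DAXX, a histone H3.3 chaperone subunit that works with ATRX, differed by 1.06 ± 0.90 for LV-MEIS1 relative to Control, by -0.94 ± 0.90 for HOXB13ko-LV-MEIS1 relative to HOXB13ko, by -1.51 ± 0.90 for HOXB13ko-LV-MEIS1 relative to LV-MEIS1 and by 2.00 ± 1.28 for the difference of the MEIS1 effects. Its level varied within groups, at 3.65, 50.6 and 46.9 CPM in Control and 2.65, 40.6 and 29.7 CPM in HOXB13ko-LV-MEIS1, so that 1 library of each stood far below its group. None of these differences passed, with limma eBayes adjusted p-values of 0.364, 0.651, 0.179 and 0.241. Without Control replicate 1 the first was -0.13, and without HOXB13ko-LV-MEIS1 replicate 1 the second was 0.22, so single libraries set their direction. ATRX, the chromatin remodeller whose loss is known to lower alpha-globin in erythroid cells, differed by -0.27 ± 0.11 in HOXB13ko-LV-MEIS1 against HOXB13ko, with an eBayes adjusted p of 0.287 in limma. It differed by -0.31 ± 0.11 in HOXB13ko-LV-MEIS1 against LV-MEIS1 (0.0308) and by 0.52 ± 0.16 for the difference of the MEIS1 effects (0.0205), with a treat adjusted p of 1.0 in each.

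The genes whose pattern was most like that of HBA2 were sought by Pearson's r of log2(CPM + 0.5) over the 12 libraries, among the 234 genes that averaged 1 CPM or more and had group means that span at least 2 log2 units. The 5 highest were SEZ6 (r = 0.989), PHF21B (0.987), CHRNB2 (0.986), KCNT1 (0.985) and SCG3 (0.984), with Spearman coefficients of 0.928, 0.942, 0.956, 0.907 and 0.883. Because the libraries form 4 groups and the genes were picked for this pattern, these values describe a shared order of groups, and no test was made. As many as 15 of the 234 genes (6.41%) had r above 0.95, and the median r was 0.172.

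SEZ6, a neuronal membrane protein gene, was at 12.5, 15.7 and 11.2 CPM in Control and at 0.166, 0.141 and 0.333 CPM in LV-MEIS1. In the libraries labelled HOXB13ko SEZ6 was at 1.66, 2.10 and 1.71 CPM, and at 1.37, 2.53 and 1.79 CPM in the HOXB13ko-LV-MEIS1-labelled set. Group means of CHRNB2, a nicotinic receptor subunit gene, were 12.1 CPM in Control, 0.277 CPM in LV-MEIS1, 1.31 CPM in HOXB13ko and 1.82 CPM in HOXB13ko-LV-MEIS1. In the same order they were 10.0, 0.161, 1.07 and 1.11 CPM for PHF21B, which encodes a PHD finger protein. KCNT1, a sodium-activated potassium channel gene, had 8.96, 1.45, 2.96 and 2.71 CPM, and SCG3, a secretogranin gene, had 9.82, 0.468, 1.93 and 1.84 CPM. All 5 were highest in Control and lowest in LV-MEIS1, as HBA2 was. Among the genes of the locus, r with HBA2 was 0.835 for HBQ1, 0.818 for NPRL3 and 0.345 for LUC7L. Their Spearman coefficients were 0.844, 0.602 and 0.203, and none of the 40 neighbours had a span of 2 log2 units.

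**Figure D4:**
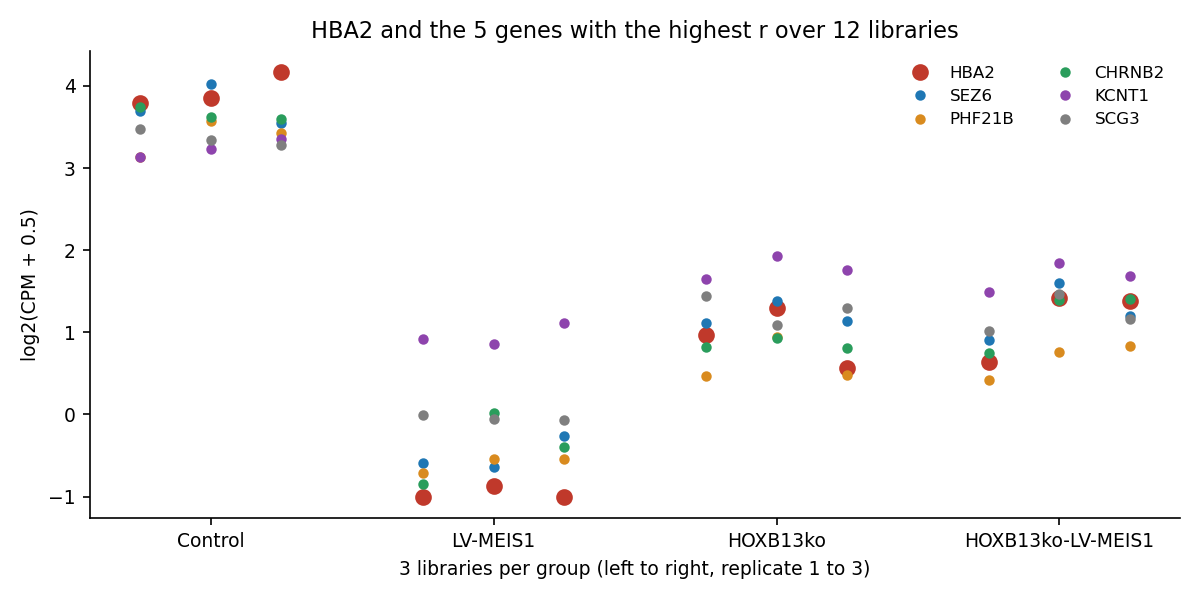
Values of HBA2 and of the 5 genes with the highest correlation to it, as log2(CPM + 0.5) (vertical axis), in the 3 libraries of each group (horizontal axis). Each point is 1 library, and all 6 genes are highest in Control and lowest in LV-MEIS1.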

How the data were processed

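The deposited values are CPM, 1 table per group with 3 libraries each. Per the study's methods and the submitters' processing notes, the reads (50 bp, single-end) were trimmed by the authors in Trimmomatic 0.38, pseudoaligned to GRCh38 transcripts by kallisto 0.43.1 without using strand, summed to genes in tximport and turned into normalised CPM in edgeR 3.22.2. Per the study's methods, the authors also filtered out genes with low counts. Whether this filter accounts for a given gene without values was not tested. Of 13993 rows, 42 exact repeats were left out and 13951 genes were analysed. The CPM summed to 940564 to 992328 per library. Depth was estimated from the steps between low CPM values. Only 39.4% to 53.6% of values under 1 CPM lay within 0.05 reads of a whole read, so whole counts could not be restored and a count model was not used.

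Linear models with 1 mean per group over 12 libraries were fitted to log2(CPM + 0.5) in limma 3.58.1 (R 4.3.3), a scale that understates changes of low genes. Genes were called with treat against a fold change of 1.5 (trended prior) at a Benjamini-Hochberg adjusted p under 0.05 over all 13951 genes, and eBayes against no change was the second test. Only treat was run on simulated data, for LV-MEIS1 against Control. Groups and replicate numbers came from the sample labels. The labels do not say that replicates are separate cultures, so p-values measure only the spread between these libraries. A planned sum of HBA1 and HBA2 was replaced by HBA2 alone, because HBA1 was not analysed here.

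The members, lists and naming rule were chosen with earlier results of these data known. Named were the members, other globins, neighbours between RHBDF1 and AXIN1 or called, up to 4 called genes of each list per comparison (or the 2 largest differences where none was called), and the 5 genes most like HBA2. Sequences, positions and lengths came from GENCODE transcripts of GRCh38, with lengths of the MANE transcript. Fibroblast markers (COL1A1 and PDGFRB of 5) served as a check of cell identity, and 1 other marker list is not reported here. The fibroblast markers summed to 14.6 to 17.9 CPM in Control and 30.2 to 34.9 CPM with MEIS1 (LV-MEIS1), and to 19.1 to 20.8 CPM in HOXB13ko and 16.2 to 18.9 CPM in HOXB13ko-LV-MEIS1, and their part in the HBA2 values was not tested. COL1A1 makes up most of this sum, and PDGFRB went the other way, at 1.41 CPM in Control and 0.266 CPM in LV-MEIS1. Alternatives were other pseudocounts, a minimum of 1 CPM, 3 scalings, a replicate term, a fit of only the groups compared, and leaving out each library. Python 3.11.15 and matplotlib 3.10.9 were used for plots.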

Additional observations from a re-analysis of the deposited data

How the results depend on the processing

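No call changed direction under the other settings. Differences near 0 changed sign in NPRL3 for HOXB13ko-LV-MEIS1 against LV-MEIS1 (0.02, with -0.01 at an equal sum and -0.02 without LV-MEIS1 replicate 2), in LUC7L for the difference of the MEIS1 effects (0.06, with -0.04 without HOXB13ko-LV-MEIS1 replicate 3), and for HOXB13ko-LV-MEIS1 against HOXB13ko in HBQ1 (-0.13, with 0.12 without HOXB13ko-LV-MEIS1 replicate 1) and ZBTB7A (0.05, with -0.01 without HOXB13ko-LV-MEIS1 replicate 2). DAXX changed sign as given above and, in HOXB13ko against Control, from 0.49 to -0.70 without Control replicate 1. Differences of HBA2 that involve LV-MEIS1 moved with the pseudocount because that group is at the floor: LV-MEIS1 against Control was -7.04 with 0.1 and -3.96 with 1, HOXB13ko-LV-MEIS1 against LV-MEIS1 was 3.98 and 1.43, and the difference of the MEIS1 effects was -7.29 and -4.13. Relative to Control, leaving out each library gave -4.97 to -4.78 for LV-MEIS1 and -3.17 to -2.81 for HOXB13ko. By limma's eBayes test against no change, 6207, 4590, 7, 6993 and 4771 genes were called for LV-MEIS1 and for HOXB13ko (each against Control), HOXB13ko-LV-MEIS1 against HOXB13ko, HOXB13ko-LV-MEIS1 against LV-MEIS1 and the difference of the MEIS1 effects, where treat called 557, 197, 1, 936 and 409. NPRL3 passed eBayes but not treat at -0.30, -0.25 and -0.27 in the first, the second and the last of these. In HOXB13ko-LV-MEIS1 against HOXB13ko, 2 genes were called with a pseudocount of 0.1 or a fit of only the groups compared, and 1 to 2 without single libraries (2 without Control replicate 1 or 2). Neighbours called in HOXB13ko against Control numbered 1, GNG13, with a pseudocount of 0.1, and 0 to 1 without single libraries (1 without Control replicate 2). In HOXB13ko-LV-MEIS1 against LV-MEIS1 they numbered 2 with a pseudocount of 0.1 or an equal sum, 0 with quantile normalisation and 0 to 2 without single libraries (2 without HOXB13ko replicate 3, 0 without LV-MEIS1 replicate 3). Haem and iron genes called there numbered 2 in a fit of only the groups compared and 1 to 2 without single libraries (2 without Control replicate 1 or HOXB13ko-LV-MEIS1 replicate 3). Same-numbered replicates did not deviate together (r from -0.209 to 0.146 over genes), so the numbers do not pair the libraries. With a replicate block, 522, 166, 2, 895 and 356 genes were called in the 5 comparisons in the order above, and 1 neighbour (GNG13) for HOXB13ko against Control, with 2 in HOXB13ko-LV-MEIS1 against LV-MEIS1. Values under 3 reads, as for HBA2 in LV-MEIS1, and the split of reads between HBA1 and HBA2 limit what these data can show.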
